A study of Mus musculus with 6 samples.

Results

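B cell identity and fate are set by a network of transcription factors, and 55 genes of this network were listed for mouse memory B cells with and without the mitophagy receptors Nix and Bnip3. The list holds factors that make and keep a cell a B cell, factors of memory, germinal centre, marginal zone and plasma cell stages, and factors better known from other lineages. Members were chosen by gene symbol, and 54 of the 55 were found among the 35186 symbols of the count table, while Pou2f1 was not analysed here. Of the 54, 33 had enough counts to be tested, and the other 21 are described by their counts. The members and the lists below were chosen with earlier results of these data known.

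RNA was sequenced from spleen memory B cells sorted for specificity to the hapten NP, about 1000 cells per library, from C57BL/6J mice. The group called DKO (3 libraries) carries the label Nix-/-Bnip3-/-, and the group called WT (3 libraries) is labelled wild type. Nix is the protein of Bnip3l. The labels give no age, no immunisation schedule, no Cre driver or promoter, and leave unsaid whether each library is a different animal. The p-values therefore reflect variation between these libraries only, which may be technical.

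PAX5 and EBF1 commit a progenitor to the B lineage and hold B cell genes active, with the E proteins, the Ikaros family and the octamer factors as partners. After antigen, BCL6 drives the germinal centre reaction, BACH2 holds back Prdm1 and so delays plasma cell formation, and PRDM1, also called Blimp-1, with XBP1 builds the secretory plasma cell. Memory B cells form between these fates, and their factors are known for quiescence, positioning and fast recall.

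The libraries differed as wholes in ways that bear on each value below. Total counts lay between 444461 and 517057 in the DKO libraries and between 312908 and 500527 in the WT libraries, and 3 counts were worth 5.52 to 6.79 normalized CPM in DKO and 11.6 to 15.8 in WT (CPM are counts scaled for library size, here also by TMM, a factor estimated from the bulk of genes). DKO libraries had between 23580 and 24787 genes with a count, against 17831 to 18486 in WT. Across the tested genes, Spearman correlations were 0.466 to 0.496 between DKO libraries and 0.152 to 0.157 between WT libraries, which resembled each other no more than they resembled DKO libraries (0.135 to 0.203). The targeted genes did not settle the labels. For Bnip3l the counts were 10, 16 and 41 in libraries labelled DKO, against 1, 8 and 0 in WT libraries, the reverse of a loss of its RNA. Bnip3 had 2, 24 and 11 counts in DKO against 25, 62 and 6 in WT. Counts per gene do not show which exons the reads came from, so a loss of part of a gene could not be seen. Neither gene passed the test (edgeR adjusted p = 0.539 and 0.412), and DKO below always means the libraries labelled so.

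Markers of B cells were scarce in both groups. All 10 listed B cell markers were in the table, and together they had 97, 95 and 147 counts in DKO libraries and 57, 44 and 35 in WT libraries, or 175 to 285 against 170.0 to 298 normalized CPM. Cd79a, a chain of the B cell receptor complex, had 0, 2 and 4 counts in DKO and 3, 0 and 0 in WT, and Cd74, the invariant chain, had 3, 5 and 4 in DKO and 2, 11 and 0 in WT. Ms4a1, which encodes CD20, was the best covered, with 42, 70 and 65 counts in DKO and 28, 0 and 8 in WT. Cd22 followed, with 37, 10 and 48 counts in DKO and 13, 4 and 2 in WT. Cd79a and Cd74 had at most 11 counts in a library, and the counts do not by themselves show B cells. In bulk RNA, fewer cells of a type and less RNA per cell cannot be told apart.

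**Figure D1:**
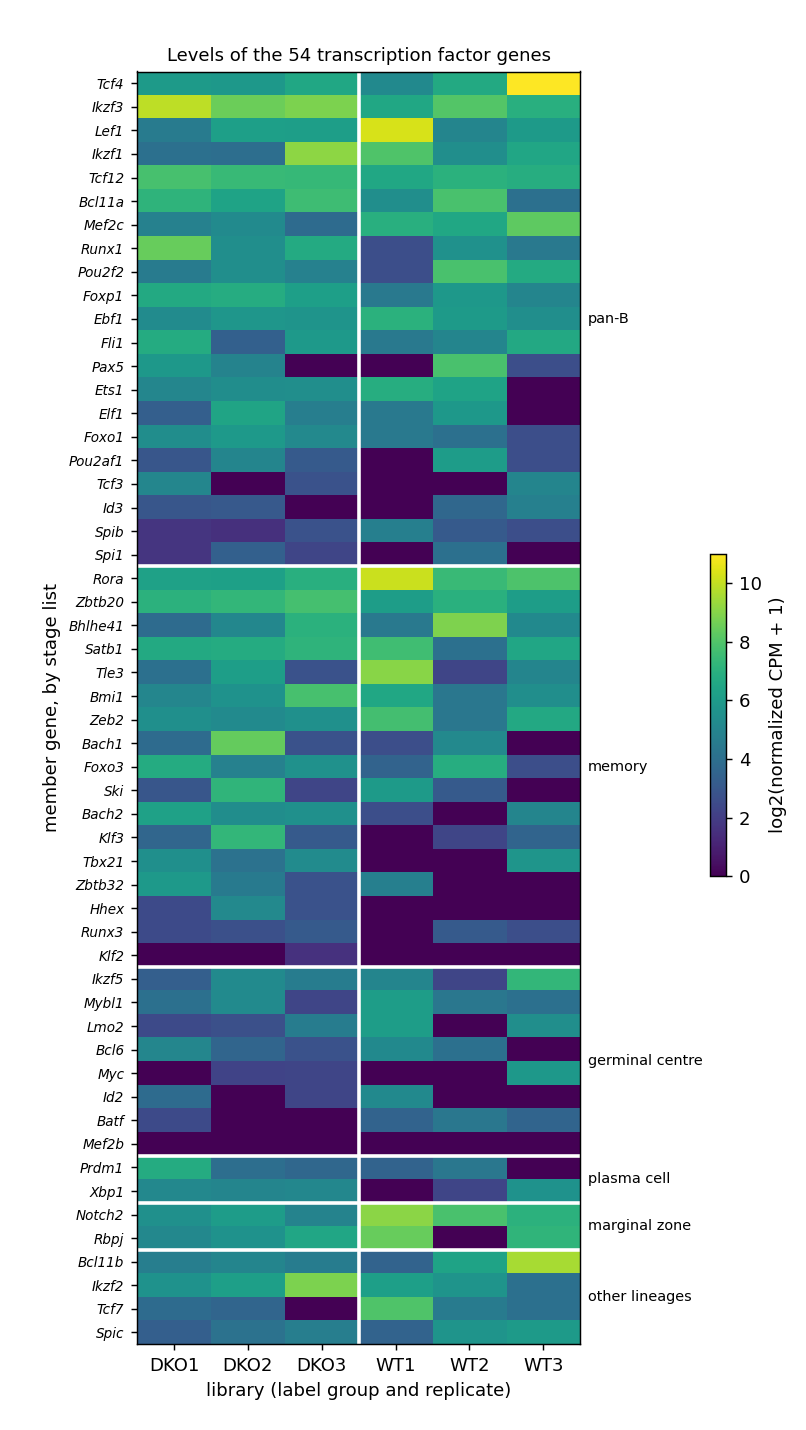
Heat map of the 54 members (rows, by stage list) in the 6 libraries (columns, DKO left and WT right), coloured by log2(normalized CPM + 1). Single bright squares, such as Tcf4 in WT library 3 and Lef1 in WT library 1, are members whose level came mostly from 1 library.

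More member genes were detected in each DKO library than in any WT library. With at least 1 count were 51, 49 and 49 members in DKO libraries 1, 2 and 3, against 41, 43 and 42 in WT libraries 1, 2 and 3. At least 10 counts were reached by 31, 36 and 31 members in DKO and by 20, 22 and 19 in WT. The groups did not overlap in either count, as was true of the genes detected over the whole table. DKO library 1 had fewer total counts than WT library 2 (444461 against 500527) and still had more members with 10 counts. The same order held over the whole table, with 23580 genes detected in DKO library 1 and 18410 in WT library 2. The share of all genes with 10 counts was not computed, so the number of members with 10 counts is not read as particular to them. All members together held 0.337%, 0.317% and 0.378% of the counts in DKO libraries and 0.375%, 0.170% and 0.315% in WT libraries, so this share overlapped between the groups.

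**Figure D2:**
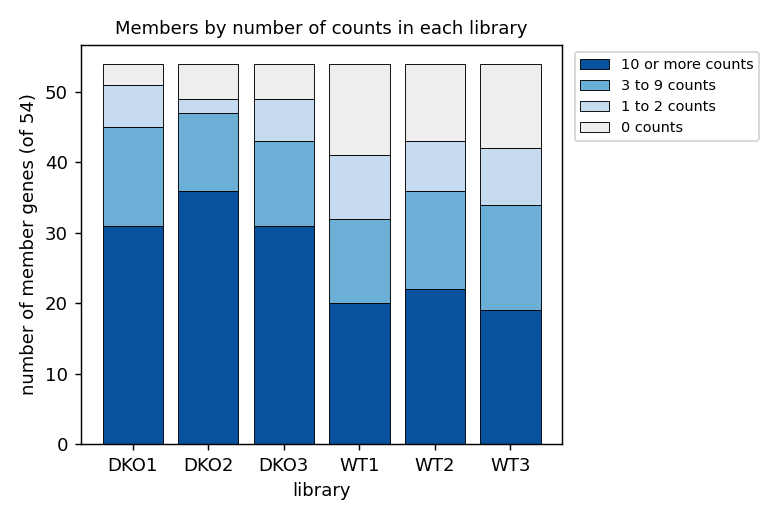
Number of the 54 members with 0, 1 to 2, 3 to 9 and 10 or more counts in each library, as stacked bars with DKO left of WT. The darkest part, 10 or more counts, holds 31 to 36 members in DKO libraries and 19 to 22 in WT libraries.

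No member passed the test. Of the 33 tested, 0 had an edgeR adjusted p under 0.05, where the whole table of 8895 tested genes also had 0 (0%). The smallest adjusted p of a member was 0.390. At an unadjusted p under 0.05 there was 1 member higher in DKO, Runx1 (5.49% of all tested genes were), and 3 were lower, Mef2c, Notch2 and Bcl11b (6.59% of all). DESeq2 called Mef2c, Notch2 and Bcl11b lower (adjusted p = 0.0214, 0.0265 and 0.0345), 3 of the 31 members for which it gave an adjusted p, where it called 4.51% of all genes lower; it called 0 members higher (2.57% of all genes), and limma-voom called 0. The median log2 fold change of the members, DKO over WT, was 0.21 and that of all tested genes -0.17, an order that did not hold under every setting: with the replicate number as a block the members' median was -0.15 and that of all genes 0.27. Values above 0 were found for 17 members and below 0 for 16 (51.5% above, against 45.5% of all genes).

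In 9 tested members the groups did not overlap. Higher in all 3 DKO libraries were 6 (12.8% of all tested genes did so), Ikzf3, Bach2, Foxo1, Foxp1, Tcf12 and Zbtb20, and lower in all 3 were Mef2c, Notch2 and Rora (6.39% of all). Of these, 8 also did not overlap when libraries were scaled by their totals alone, the exception being Rora. Under that scaling the background was 23.8% higher and 2.51% lower. These shares cover tested genes only. Bach2 and Foxo1, with at most 6 counts in a WT library, and Foxp1, with at most 15, passed the filter on low counts through their DKO libraries. Mef2c, with 7 counts in DKO library 3, passed it through its WT libraries. Among the untested members, Hhex lay higher in all 3 DKO libraries, and Batf and Tcf7 lay lower once scaled. In raw counts the groups overlapped for Batf and Tcf7. The share of untested genes with groups that did not overlap was not computed. Hhex and Batf, but not Tcf7, also did not overlap with library totals alone.

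**Figure D3:**
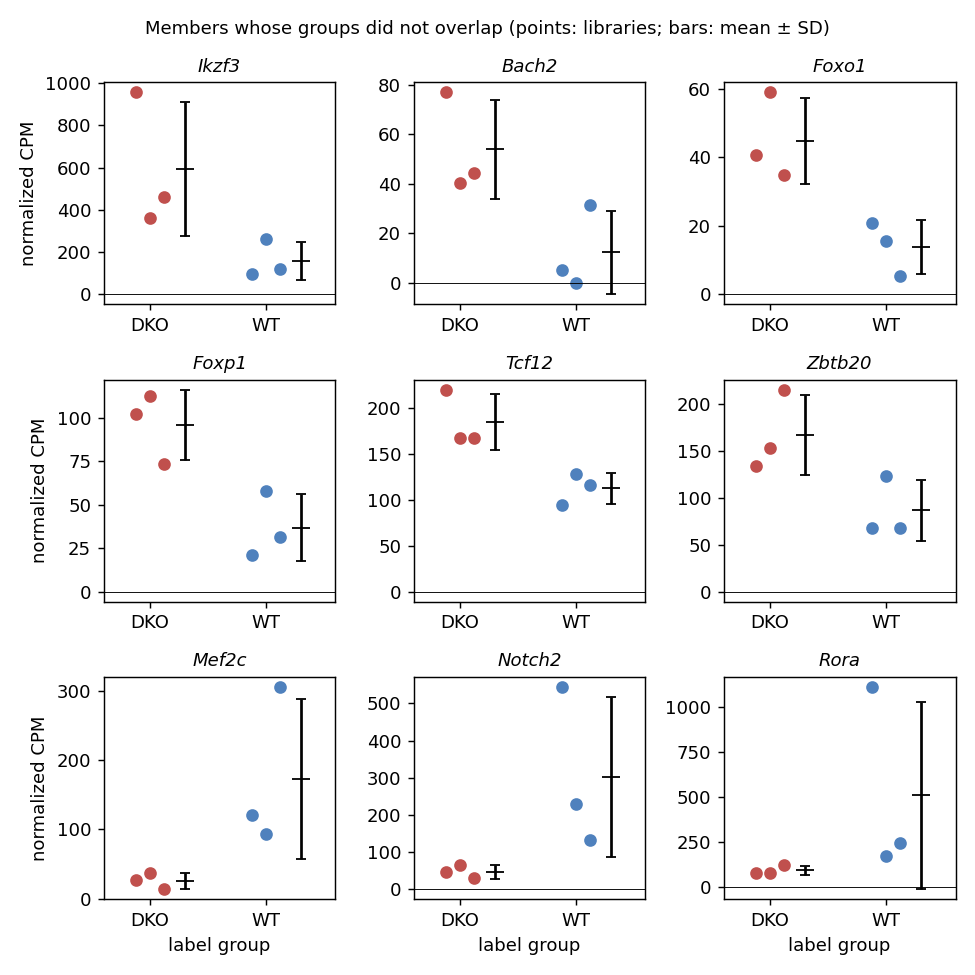
Normalized CPM of the 9 tested members whose groups did not overlap, DKO left and WT right in each panel (points are libraries, bars are the mean ± SD of 3). Ikzf3, Bach2, Foxo1, Foxp1, Tcf12 and Zbtb20 lie higher in DKO; for Mef2c, Notch2 and Rora, 1 WT library stands far above the other WT libraries.

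Among factors of all B cell stages, the Ikaros family gave the member with the highest mean in DKO, and others that turned on 1 library. Ikzf3 encodes Aiolos, a zinc finger partner of Ikaros in mature B cells. It lies on chromosome 11, 98464902 to 98546031, of the mm10 build. Its counts were 423, 197 and 237 in DKO libraries and 18, 68 and 23 in WT libraries, so the lowest DKO library stood above the highest WT library. Means were 593 ± 319 normalized CPM in DKO and 159 ± 90.7 in WT (SD, n = 3 each), with a log2 fold change of 1.89 (SE 1.204, edgeR adjusted p = 0.513). Ikaros itself, Ikzf1, had 7, 8 and 291 counts in DKO and 48, 11 and 17 in WT. DKO library 3 alone put its mean above that of WT, and without it the log2 fold change was -2.92 rather than 0.64. Helios, Ikzf2, which is better known from T cells, had 21, 40 and 236 counts in DKO and 14, 13 and 3 in WT (log2 fold change 2.05, SE 1.15, edgeR adjusted p = 0.467). Here too DKO library 3 stood out, and without it the value was 0.48. The 7 listed neutrophil markers, all in the table, also peaked in that library, at 99.5 to 1216 normalized CPM in DKO and 216 to 383 in WT. There Cxcr2 held 600 of their 628 counts and S100a8 had 0. Ltf, the other neutrophil marker tested, had 6, 13 and 17 counts in DKO and 25, 37 and 51 in WT. It lay lower in DKO with groups that did not overlap (edgeR adjusted p = 0.390). The part of these markers in the values of Ikzf1, Ikzf2 and Bmi1, all highest in DKO library 3, was not tested. Ikzf5, also called Pegasus, had 4, 20 and 12 counts in DKO and 6, 1 and 29 in WT, at -1.41, or 0.50 without WT library 3.

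Of the lineage-commitment factors, Pax5 was erratic and Ebf1 was counted in every library. Pax5 had 25, 16 and 0 counts in DKO libraries and 0, 59 and 1 in WT libraries, so each group held a library with none. Its log2 fold change was -1.45 (SE 1.65), or 3.33 without WT library 2, a value resting on 0 and 1 counts in WT libraries 1 and 3. Ebf1 was more even, with 17, 29 and 26 counts in DKO and 25, 16 and 8 in WT, or 47.4 ± 7.89 against 78.1 ± 46.5 normalized CPM (SD, n = 3 each). Its value of -0.71 (SE 0.91) turned to 0.045 with library totals alone. The groups overlapped for both genes.

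The forkhead factors Foxo1 and Foxp1 lay higher in all 3 DKO libraries. Foxo1, which turns on genes of B cell trafficking and receptor rearrangement and is restrained by PI3K signalling, had 18, 32 and 18 counts in DKO and 4, 4 and 1 in WT (44.8 ± 12.5 against 13.9 ± 7.94 normalized CPM, SD, n = 3 each). The log2 fold change of 1.66 (SE 0.97, edgeR adjusted p = 0.478) had a range from 1.37 to 2.11 as single libraries were left out. Foxp1, a repressor needed for B cell development, had 45, 61 and 38 counts in DKO and 4, 15 and 6 in WT. On the log2 scale DKO exceeded WT by 1.36 (SE 0.92, edgeR adjusted p = 0.536). The groups overlapped for Foxo3, the relative of Foxo1, which had 47, 15 and 24 counts in DKO and 2, 30 and 1 in WT and a value of 0.42 (SE 1.17), or 2.92 without WT library 2.

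E proteins, helix-loop-helix activators of B cell genes, did not share a direction. Tcf12, whose value moved least of the tested members as single libraries were left out (0.67 to 0.88), had 97, 91 and 86 counts in DKO and 18, 33 and 22 in WT. Its means of 184 ± 30.2 and 112 ± 16.97 normalized CPM in DKO and WT differed by 0.71 on the log2 scale (SE 0.89, edgeR adjusted p = 0.749). Tcf4 had 28, 31 and 48 counts in DKO and 7, 26 and 389 in WT, so that 85.4% of its summed level was in WT library 3. Its value of -3.35 (SE 1.62) became 0.12 without that library. All 6 listed dendritic cell markers were in the table and summed to 390.2 to 525 normalized CPM in DKO and 214 to 2610.1 in WT, where the top value was again WT library 3. That value rested on Itgax, which held 471 of the 497 marker counts there, while Siglech, which marks plasmacytoid dendritic cells, had 0. Zbtb46, with 97, 112 and 93 counts in DKO and 7, 30 and 19 in WT, and Xcr1, with 26, 10 and 14 in DKO and 2, 0 and 2 in WT, lay higher in DKO with groups that did not overlap. Their part in the value of Tcf4 was not tested. Tcf3, which encodes E2A, had 14, 0 and 3 counts in DKO and 0, 0 and 6 in WT and was not tested. Their inhibitors were as sparse, with 3, 4 and 0 counts in DKO and 0, 3 and 5 in WT for Id3, and 6, 0 and 2 in DKO and 7, 0 and 0 in WT for Id2.

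Mef2c had the smallest p of the members. It encodes a MADS-box factor that serves B cell proliferation after receptor signalling (chromosome 13, 83504034 to 83667080). Counts were 12, 20 and 7 in DKO libraries and 23, 24 and 58 in WT libraries, or 25.8 ± 11.7 against 172 ± 115 normalized CPM (SD, n = 3 each). WT library 3 held 51.2% of the summed level, yet each WT library lay above each DKO library. The log2 fold change was -2.72 (SE 0.99, unadjusted p = 0.0181, edgeR adjusted p = 0.390) and -1.96 without WT library 3. Its relative Mef2b, a germinal centre factor, had 0 counts in all 6 libraries, where 3 counts over all of them would be a mean of 1.40 normalized CPM, so it was not detectable at this depth.

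Runx1, which acts early in blood and B cell development, was the member with the smallest p among those higher in DKO. Its counts were 151, 23 and 54 in DKO libraries and 1, 12 and 4 in WT libraries, and it passed the filter on low counts through its DKO libraries. Once scaled, DKO library 2 at 42.3 normalized CPM lay just below WT library 2 at 46.4, so the groups overlapped. The log2 fold change was 2.71 (SE 1.16, unadjusted p = 0.0384, edgeR adjusted p = 0.404), or 1.69 without DKO library 1. Runx3 had at most 4 counts in a library.

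The other pan-B factors overlapped between groups. Lef1, a WNT effector of early B and T cells, had 10, 40 and 36 counts in DKO and 247, 8 and 12 in WT, and without WT library 1 its value of -3.05 became 0.32. Bcl11a, needed for the earliest B cell progenitors, had 63, 45 and 98 in DKO and 8, 59 and 3 in WT. The ETS factors Ets1, Elf1 and Fli1 had between 4 and 47 counts in DKO libraries and between 0 and 22 in WT libraries, with values of -0.77, 0.56 and 0.21; the first was 0.0096 with library totals alone. The octamer factor OCT2, Pou2f2, had 10, 23 and 14 counts in DKO and 1, 59 and 20 in WT, at -1.87 (SE 1.15), or -0.80 without WT library 2. Its coactivator Pou2af1 (3, 17 and 4 against 0, 17 and 1) and the ETS factors Spi1 (1, 5 and 2 against 0, 4 and 0) and Spib (1, 1 and 3 against 5, 2 and 1, DKO and WT in each) were not tested.

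Of the 9 tested memory factors, 6 lay above 0 and 3 below, with a median log2 fold change of 0.42, or 1.27 with library totals alone. Bach2, which limits plasma cell formation and is needed for memory B cells, had 34, 22 and 23 counts in DKO libraries and 1, 0 and 6 in WT libraries (chromosome 4, 32238804 to 32586108). Means were 53.98 ± 19.95 normalized CPM in DKO and 12.2 ± 16.9 in WT (SD, n = 3 each). The groups did not overlap, and WT libraries held 7 counts in all. DKO exceeded WT by 2.16 on the log2 scale (SE 1.21, edgeR adjusted p = 0.466), or by 4.41 without WT library 3. The latter rests on 1 and 0 counts in WT libraries 1 and 2 and is no measured size. Its relative Bach1 had 6, 183 and 3 counts in DKO and 1, 9 and 0 in WT, with 85.0% of the level in DKO library 2.

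Zbtb20, a zinc finger factor known for long-lived plasma cells in mice, had 59, 83 and 111 counts in DKO and 13, 32 and 13 in WT. Its value of 0.94 (SE 0.90, edgeR adjusted p = 0.670) stayed between 0.82 and 1.33 when single libraries were left out. Zbtb32, which in mice restrains memory recall, had 26, 12 and 3 in DKO and 5, 0 and 0 in WT and was not tested. Rora, a nuclear receptor, lay the other way, with 76.9, 75.5 and 120.1 normalized CPM in DKO and 1107, 174 and 242 in WT. The difference was -2.48 on the log2 scale (SE 1.22, edgeR adjusted p = 0.420), or -1.12 without WT library 1, which held 61.7% of its level.

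Zeb2, a zinc finger factor of age-associated B cells, was nearly constant in DKO libraries at 19, 20 and 23 counts and ranged widely in WT libraries at 40, 5 and 19 (log2 fold change -1.39, SE 1.013, or -0.44 without WT library 1). Tbx21, which encodes T-bet, had 19, 9 and 20 counts in DKO and 0, 0 and 10 in WT. Its value of 0.93 became 6.70 without WT library 3, with no counts left in WT, a fitted value that is no bound. The polycomb gene Bmi1 (14, 26 and 113 in DKO, 18, 5 and 8 in WT), the chromatin organiser Satb1 (45, 59 and 72 in DKO, 38, 4 and 17 in WT) and Bhlhe41 (6, 18 and 66 in DKO, 4, 120 and 7 in WT), a factor of B-1 cells in mice, overlapped. Bhlhe41 was at -1.58, or 1.05 without WT library 2.

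Hhex and its corepressor Tle3, which together steer germinal centre cells to memory in mice, had few or scattered counts. Hhex had 2, 19 and 3 counts in DKO libraries and 0 in each WT library, a mean of 15.1 normalized CPM in DKO that is at least 3.23-fold higher than 3 counts spread over the WT libraries would be, with 77.2% of its level in DKO library 2. Tle3 had 7, 39 and 3 in DKO and 100, 1 and 6 in WT. Ski, a corepressor of TGF-beta signalling, had 3, 79 and 2 in DKO and 12, 2 and 0 in WT. Klf3 had 5, 84 and 4 in DKO and 0, 1 and 2 in WT, and Klf2, which holds lymphocytes in quiescence and in circulation, had a single count, in DKO library 3. DKO library 2 was thus the highest library for Bach1, Hhex, Ski and Klf3.

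Germinal centre factors were the sparsest group. Only Lmo2 and Ikzf5 of the 8 listed were tested, both below 0. Ikzf5, described above with the Ikaros family, was at 0.50 without WT library 3. Bcl6, the master repressor of the germinal centre programme, had 14, 6 and 3 counts in DKO libraries and 7, 4 and 0 in WT libraries, or 16.2 ± 13.7 against 17.3 ± 18.4 normalized CPM (SD, n = 3 each). Lmo2 had 2, 3 and 12 in DKO and 13, 0 and 8 in WT, at -1.66 (SE 1.28, edgeR adjusted p = 0.587), or between -2.64 and -0.78 with 1 library left out. Mybl1 had 7, 20 and 2 in DKO and 13, 5 and 3 in WT. Myc, which marks positively selected cells, had 0, 2 and 2 in DKO and 0, 0 and 11 in WT. Batf, which serves class switching, had 2, 0 and 0 in DKO and 2, 5 and 2 in WT.

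The plasma cell factors had more counts in DKO libraries, from low levels, and in normalized CPM the groups overlapped for both. Prdm1 had 48, 8 and 6 counts in DKO and 2, 5 and 0 in WT, too few to be tested, with 65.9% of its level in DKO library 1. Xbp1 had 15, 17 and 17 in DKO and 0, 1 and 9 in WT, or 32.7 ± 1.33 against 17.04 ± 26.2 normalized CPM (SD, n = 3 each). DKO libraries agreed closely while WT library 3 alone exceeded them. The difference was 0.96 on the log2 scale (SE 1.201, edgeR adjusted p = 0.750), or 3.81 without that library. The latter rests on 0 and 1 counts in WT libraries 1 and 2 and is no measured size. Of the plasma cell markers beside them, 5 of the 6 listed symbols were in the table, and they summed to 21.3 to 71.8 normalized CPM in DKO and 61.8 to 226 in WT. These markers did not share a direction. Sdc1 (0, 5 and 0 counts in DKO, 11, 4 and 26 in WT) and Mzb1 had higher means in WT. Slamf7 (15, 12 and 6 in DKO, 5, 2 and 1 in WT), Tnfrsf17 and Igj had higher means in DKO. Their part in the values of Prdm1 and Xbp1 was not tested.

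Notch2 and Rbpj, the receptor and the DNA-binding partner that direct marginal zone B cells, both had negative log2 fold changes, with groups that overlapped for Rbpj. Notch2 (chromosome 3, 98013527 to 98150361) had 20, 36 and 15 counts in DKO libraries and 104, 59 and 25 in WT libraries. Means were 46.9 ± 18.7 normalized CPM in DKO and 301 ± 215 in WT (SD, n = 3 each), with groups that did not overlap. The log2 fold change was -2.67 (SE 1.04, unadjusted p = 0.0247, edgeR adjusted p = 0.390), and -1.86 without WT library 1. Rbpj had 15, 26 and 46 in DKO and 67, 0 and 28 in WT, so WT library 2 lay below every DKO library, and its value was -1.53 (SE 1.35), or -0.28 without WT library 1.

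Among factors of other lineages, Bcl11b and Tcf7 rested mostly on single WT libraries. Bcl11b, which fixes T cell identity, had 11, 17 and 12 counts in DKO and 2, 21 and 142 in WT. WT library 3 held 81.3% of its level, and the log2 fold change of -3.38 (SE 1.37, edgeR adjusted p = 0.393) was -0.73 without it. Tcf7, the T cell partner of Lef1, had 6, 6 and 0 in DKO and 48, 6 and 3 in WT and was not tested. All 10 T cell markers were in the table, and they summed to 181 to 247 normalized CPM in DKO and 344 to 509 in WT, or 80, 134 and 95 against 88, 89 and 97 counts. The markers did not move together. Cd3e had 16, 20 and 11 counts in DKO and 4, 5 and 1 in WT. Cd3d, with 1, 4 and 6 in DKO and 9, 1 and 33 in WT, and Cd8b1, with 4, 5 and 4 in DKO and 0, 2 and 22 in WT, were highest in WT library 3, as was Bcl11b. Cd5 had 0, 1 and 1 in DKO and 22, 0 and 0 in WT, highest in WT library 1, as was Tcf7. Spic, a factor of splenic red pulp macrophages, had 4, 9 and 13 counts in DKO and 2, 13 and 12 in WT (log2 fold change -1.27, SE 0.99). Of the 9 macrophage markers 8 were in the table, at 423 to 819 normalized CPM in DKO and 67.9 to 622 in WT. Lyz2 had 35, 92 and 206 counts in DKO and 4, 0 and 10 in WT. Itgam had 81, 181 and 147 in DKO and 1, 9 and 21 in WT. Both lay higher in DKO with groups that did not overlap (edgeR adjusted p = 0.396 and 0.419). Fcgr1, with 13, 41 and 26 in DKO and 6, 105 and 0 in WT, was highest in WT library 2. Of the 5 tested macrophage markers 3 lay above 0 and 2 below. The part of these cells in the member values was not tested.

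**Figure D4:**
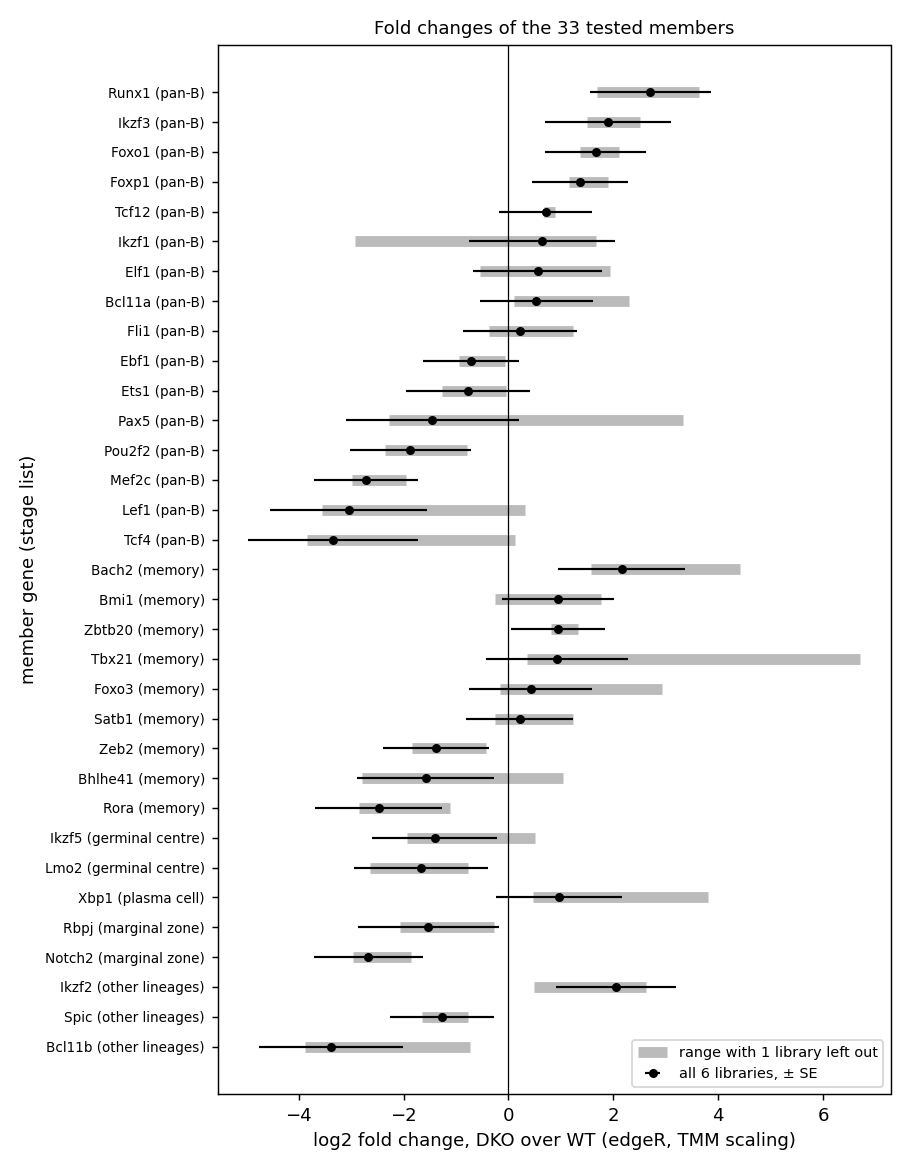
Log2 fold changes, DKO over WT, of the 33 tested members by stage list (points with SE) and the range of the value when 1 library is left out (grey bars). Tcf12, Foxo1, Foxp1 and Zbtb20 have short grey bars on 1 side of 0, while those of Pax5, Ikzf1 and Tcf4 cross it.

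Promoter sequence is shown for Mef2c and Notch2, which had the smallest p among members lower in DKO, for Runx1, which had it among those higher, and for Foxo1, chosen because its window was the only one of a member to hold the EBF1 motif. Each is the 250 bases before the RefSeq start on build GRCm38.p6, which is mm10. Windows were searched on both strands for CAGGTG (bound by E proteins), ATGCAAAT (octamer), TCCC and GGGA with any pair of bases between (EBF1), GTAAACA (FOXO), TGTGGT (RUNX) and TGGGAA (Ikaros), and matches are in capitals.
Foxo1, chr3:52268087-52268336, plus strand: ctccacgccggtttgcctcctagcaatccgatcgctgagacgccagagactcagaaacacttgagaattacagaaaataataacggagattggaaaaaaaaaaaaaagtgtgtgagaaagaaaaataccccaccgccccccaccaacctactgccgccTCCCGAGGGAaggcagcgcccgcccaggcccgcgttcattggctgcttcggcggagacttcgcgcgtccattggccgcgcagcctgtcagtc
Runx1, chr16:92826075-92826324, minus strand: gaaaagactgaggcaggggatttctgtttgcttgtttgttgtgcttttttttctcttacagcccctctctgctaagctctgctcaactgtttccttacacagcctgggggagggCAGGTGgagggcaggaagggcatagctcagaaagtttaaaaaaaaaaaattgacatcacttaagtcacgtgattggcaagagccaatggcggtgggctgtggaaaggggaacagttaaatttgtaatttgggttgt
Mef2c, chr13:83503784-83504033, plus strand: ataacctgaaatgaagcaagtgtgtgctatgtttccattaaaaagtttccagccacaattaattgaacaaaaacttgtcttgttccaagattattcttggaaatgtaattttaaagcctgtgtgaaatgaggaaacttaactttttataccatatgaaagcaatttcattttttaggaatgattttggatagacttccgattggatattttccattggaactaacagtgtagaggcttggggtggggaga
Notch2, chr3:98013288-98013537, plus strand: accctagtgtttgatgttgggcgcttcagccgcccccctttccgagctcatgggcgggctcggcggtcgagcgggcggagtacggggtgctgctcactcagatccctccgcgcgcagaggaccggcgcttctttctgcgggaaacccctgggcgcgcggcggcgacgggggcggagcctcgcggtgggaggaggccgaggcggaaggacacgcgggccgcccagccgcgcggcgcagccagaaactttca
The Foxo1 window held the EBF1 letters, as did 0.780% of all 32841 windows, and that of Runx1 held the E protein letters, as did 17.2%. The windows of Mef2c and Notch2 held none of the 6. Where RefSeq gives several starts, the window nearest the annotated gene start is shown. Mef2c had 3 windows, with 33.6%, 44.8% and 49.6% G or C and no match in any, and Runx1 had 2, of which the other held no match. The Notch2 window had 72% G or C. Of the 54 members 45 had a window, 70 windows in all. In these, CAGGTG was found in 14.3%, TGTGGT in 8.57% (all windows 14.0%) and TGGGAA in 17.1% (all windows 21.6%). ATGCAAAT was in windows of Elf1 and Mef2b, 2.86% of member windows against 1.6% of all windows. GTAAACA was in a window of Prdm1 only, 1.43% against 3.17% of all windows. A match describes letters and not binding.

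Genes that these factors are known to control were scattered too. Of 6 tested genes that PAX5 activates, 1 lay above 0 and 5 below, with a median log2 fold change of -0.91; with library totals alone 3 lay on each side and the median was -0.13. Blnk, the adaptor under the B cell receptor, had 25, 36 and 37 counts in DKO and 106, 21 and 58 in WT (-2.26, SE 1.06), and the complement receptor gene Cr2 had 24, 36 and 30 in DKO and 50, 40 and 28 in WT (-1.65, SE 0.90). Nedd9, an adhesion scaffold, was at 1.76 (SE 1.11). Of 6 genes that PAX5 represses, 3 lay above 0 and 3 below (median -0.35, or 0.51 with library totals), led by Cd28 at -1.36 (SE 1.05), Notch1 at -1.25 (SE 1.10) and Ccr2 at 1.12 (SE 1.04). All 6 tested germinal centre genes lay below 0 (median -1.03), but with library totals alone (median -0.24) 3 lay above and 3 below. The repair gene Neil1 (0, 17 and 10 counts in DKO, 54, 51 and 1 in WT) was at -3.22 (SE 1.46) and Nuggc at -2.49 (SE 1.14). By edgeR, 0 of them passed.

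Targets of FOXO1 and KLF2 had 2 tested genes. Rag1, of the recombinase, had 39, 18 and 128 counts in DKO and 1, 12 and 5 in WT (2.21, SE 1.13), and the integrin gene Itgb7 was at -0.83 (SE 1.33). Of the plasma cell genes 2 were tested, the elongation factor Ell2 at -3.35 (SE 1.47), with 149 counts in WT library 3, and Irf4 at 1.15 (SE 1.23), with 81, 53 and 5 counts in DKO and 5, 25 and 1 in WT. Among relatives and partners of the members, 5 of 12 lay above 0 and 7 below (median -0.28, or 0.49 with library totals). Mef2d, a relative of Mef2c, had 15, 47 and 16 counts in DKO and 0, 1 and 4 in WT (2.59, SE 1.203), the reverse order of Mef2c. Etv6 and Elf2, both ETS factors, were at -4.48 (SE 1.81) and -2.99 (SE 1.39), with 493 and 157 counts in WT library 2. In none of these lists did a gene pass by edgeR.

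Per kilobase of exon, Ikzf3 was the highest member in DKO at 67.7 ± 36.4 normalized CPM per kb, followed by Ikzf1 at 34.3 ± 54.8 and Bmi1 at 25.0 ± 26.1 (SD, n = 3). In WT the order began with Lef1 at 52.5 ± 81.7, Rora at 38.8 ± 39.8, Tcf7 at 36.8 ± 50.9 and Bcl11b at 34.4 ± 50.01 (SD, n = 3), each led by 1 library. For each of these members the SD exceeded the gap to the next in the order. A single library held over 50% of the summed level for 14 of the 33 tested members (42.4%, against 29.7% of all tested genes).

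Counts followed gene length. Over the 54 members, the mean normalized CPM of both groups had a Spearman correlation of 0.684 with the genomic span of the gene and of 0.781 with its exonic length, against 0.612 and 0.645 over the 28233 genes with a count and 1 matching annotation. Over the 8435 tested genes with 1 matching annotation the correlations were lower, at 0.257 and 0.354. All points share the same 6 libraries, and span and exonic length go together. Of the 20 members with the shortest span (2.26 to 29.5 kb), 7 were tested, with a median of 36 counts over all libraries, and of the 20 with the longest (96.1 to 767 kb), 20 were tested, with a median of 208.5. Klf2, Id3, Id2 and Myc, all within 4.98 kb, had 1, 15, 15 and 15 counts in all, while Rora and Zbtb20, the longest, had 440 and 311. Some short members had many counts, such as Bhlhe41 (7.32 kb) with 221 and Bmi1 (9.61 kb) with 184.

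**Figure D5:**
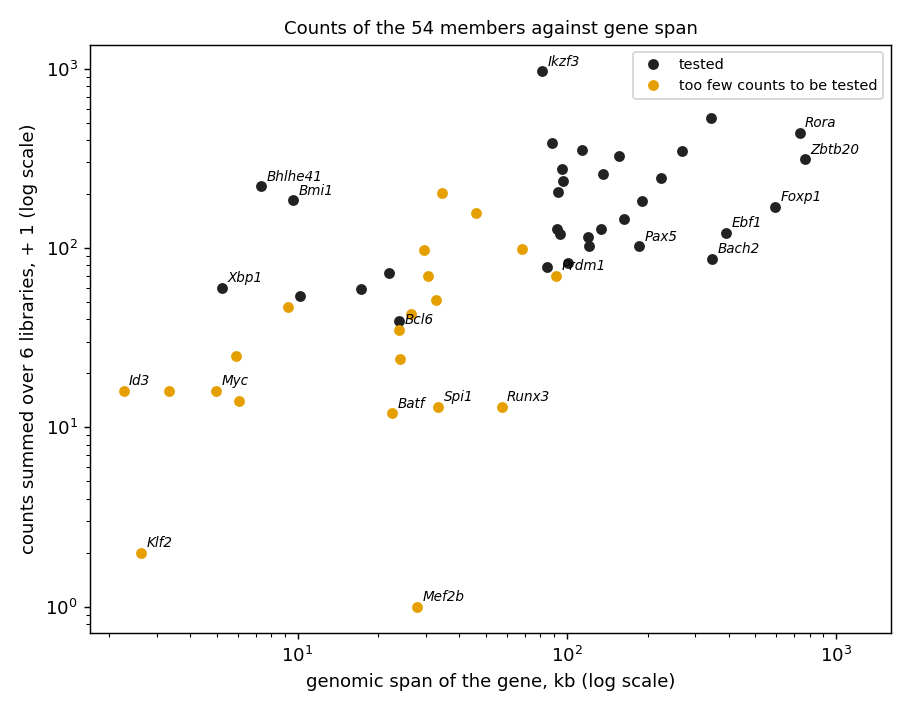
Counts summed over the 6 libraries (plus 1, log scale) against the genomic span of the gene (kb, log scale) for the 54 members, split by whether they were tested. Short genes such as Klf2 and Myc lie at the lower left and long genes such as Rora and Zbtb20 at the upper right.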

How the data were processed

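The authors deposited raw read counts per gene symbol for 6 libraries, not normalized. Per the submitters' processing notes, CASAVA, STAR, edgeR, R 3.6.3 and mm10 were used, without their roles; which tool counted reads, with which strand setting and annotation, is not given in the sources used here. Overlapping and antisense genes therefore cannot be told apart. Per the labels' protocols, cDNA libraries enriched for polyadenylated RNA were made with a single-cell RNA library kit. No molecular identifiers are named, so floors (3 counts) cover counting error only. Columns were matched by name, with 0 unmatched.

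The test was edgeR's (version 4.0.16, run in R 4.3.3 with limma 3.58.1 installed): filterByExpr (minimum count 10), TMM, quasi-likelihood F test, robust, DKO against WT over all 6 libraries with no covariate, Benjamini-Hochberg over 8895 genes, adjusted p threshold 0.05. A SE is the log2 fold change over the square root of F. The code was tested on simulated counts. Normalized CPM divide a count by library size of the kept genes times the TMM factor. Per library values are given for members with an unadjusted p under 0.05, with groups that did not overlap, or among the 3 smallest p of a stage list, and for Pax5, Ebf1, Bach2, Bcl6, Prdm1 and Xbp1; of the other gene lists, up to 3 tested genes with the smallest p are named, except where a gene is not reported here. Values of other members and of Cd79a, Cd74, Ms4a1, Cd3e, Cd3d, Cd8b1, Cd5, Itgax, Siglech, Zbtb46, Xcr1, Cxcr2 and S100a8 were added after they were seen. So were those of Cd22, Lyz2, Itgam, Fcgr1, Ltf, Sdc1, Mzb1, Slamf7, Tnfrsf17 and Igj. Members and lists were chosen with earlier results of these data known. Positions and lengths are from GENCODE M21 (mm10), promoters from RefSeq (GRCm38.p6). Alternatives were other scalings, filters and tests (DESeq2 1.42.0, limma-voom), no robust estimation, an adjusted p of 0.1, the replicate number as a block, and each library left out.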

Additional observations from a re-analysis of the deposited data

How the results depend on the processing

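The number of members past the threshold stayed at 0 under all settings run except DESeq2, which called 3 members and 601 genes in all. Without a filter on low counts edgeR called 130 genes, of which 0 were members. Leaving out 1 library gave 0 calls of genes and 0 of members each time. The members' median log2 fold change of 0.21 was 0.93 with library totals alone, 0.53 without a filter and -0.15 with the replicate number as a block, and with 1 library left out it ran from -0.65 to 0.26. The median of all genes was -0.17, and 0.62 with library totals alone. The members' median lay below that of all genes with the block (-0.15 against 0.27), in limma-voom (-0.0019 against 0.23), without DKO library 1 (-0.37 against -0.16), 2 (-0.54 against -0.22) or 3 (-0.65 against -0.19), and without WT library 1 (0.035 against 0.084). The replicate block gave 0 calls, as did the fit without it. Deviations of same-numbered libraries correlated at 0.0227, 0.0265 and 0.0368, each the highest for its library but too low to treat the numbers as pairs.

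Of the 33 tested members, 20 kept their sign under every setting and 28 moved over 1.5-fold when 1 library was left out. Sign changes by setting were Ebf1 (0.045) and Ets1 (0.0096) with library totals, Ikzf1 (-1.09), Ets1 (0.82) and Fli1 (-0.33) in limma-voom, and Ikzf1 (-1.09) and Fli1 (-0.11) with the block. With 1 library left out, values ran from -2.28 to 3.33 for Pax5, -3.84 to 0.12 for Tcf4, -2.92 to 1.66 for Ikzf1, -1.93 to 0.50 for Ikzf5, -0.16 to 2.92 for Foxo3, -0.25 to 1.77 for Bmi1, -0.54 to 1.94 for Elf1, -0.37 to 1.22 for Fli1, -0.26 to 1.24 for Satb1, -2.79 to 1.05 for Bhlhe41 and -3.56 to 0.32 for Lef1. The count of members whose groups did not overlap, a check added after the data were seen, was 9 higher and 2 lower with library totals and ran from 6 to 9 higher and 3 to 7 lower with 1 library left out, where the share of all genes also lay higher, at 15.5% to 23.1% higher and 8.95% to 13.3% lower. With library totals it was 23.8% higher and 2.51% lower. The cause of the other changes was not tested. Depth limits the 21 untested members: 3 counts were worth up to 15.8 normalized CPM in a WT library.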
